A study of Mus musculus with 12 samples.

Results

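GABA interneuron genes were followed across the hippocampal RNA-seq libraries of aged mice given pyrroloquinoline quinone (PQQ), a redox cofactor taken as a supplement. The 9 genes were taken by symbol, Gad1, Gad2, Slc32a1, Sst, Npy, Vip, Cck, Pvalb and Reln, out of 27833 genes in the deposited table. All 9 were found, and all 9 passed the filter of a mean of at least 0.5 FPKM (fragments scaled to gene length and to the total of the library), as did 13796 genes in all. The 12 libraries came from wild-type male C57BL/6J mice aged 20 months, and 3 of them were CON libraries of mice given normal saline, 5 were PQQ-L libraries (PQQ at 5 mg/kg/day) and 4 were PQQ-H libraries (PQQ at 10 mg/kg/day). Every group was gavaged for 14 days, and no young mice were included, so the groups share the same natural aging. The labels do not say that each library came from a different mouse, so p-values measure the spread between these libraries only.

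GABA interneurons are the inhibitory local neurons of the hippocampus. They make GABA from glutamate with the 2 glutamate decarboxylases encoded by Gad1 and Gad2, load it into synaptic vesicles with the transporter encoded by Slc32a1, and are sorted into classes by the peptides and proteins they carry. Somatostatin (Sst), neuropeptide Y (Npy), vasoactive intestinal peptide (Vip), cholecystokinin (Cck), the calcium-binding protein parvalbumin (Pvalb) and the secreted matrix protein reelin (Reln) mark partly overlapping classes, and none of the 9 is confined to hippocampal interneurons. Cck, for example, is also made by excitatory neurons, and GABA is the transmitter of the medium spiny neurons of the striatum as well.

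Not every library had the profile of its tissue label. The reads behind the FPKM summed to 29654553 to 38179496 per library (median 35168171). In 4 libraries, CON 1, CON 3, PQQ-H 1 and PQQ-H 2, the summed FPKM of 15 striatal medium spiny neuron markers was 1016 to 2575, against 67.3 to 138 in the other 8, and it exceeded the summed FPKM of the CA pyramidal and dentate granule markers. These hippocampal sums were 99.4 to 176 in the 4 libraries and 228 to 492 in the other 8. In CON 1 the dentate marker Lct was listed at 0.00 FPKM, the dentate marker C1ql2 at 0.18 and the CA1 marker Spink8 at 0.07. Other markers of these lists were still present in CON 1, such as Calb1 at 36.4 FPKM, Pdzd2 at 6.12, Wfs1 at 26.3 and Pou3f1 at 14.7. The 4 libraries are called striatum-rich below; they are 2 of 3 in CON, 0 of 5 in PQQ-L and 2 of 4 in PQQ-H, and the comparisons between groups are given with and without them. In addition, the summed FPKM of 13 choroid plexus markers was 1560 to 5490 in CON, 50.8 to 125 in PQQ-L and 21.6 to 35.3 in PQQ-H, so that choroid plexus content and the CON group cannot be told apart.

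All 9 genes were readily detected. Cck had the highest mean level over the 12 libraries, 253.0 ± 77.7 FPKM (SD, n = 12), and Sst was next at 245.2 FPKM. The means then went down through Npy (97.0 FPKM), Gad1 (80.7), Pvalb (63.8), Slc32a1 (34.7), Gad2 (23.3), Vip (12.4) and Reln (4.83). In this order the ranges of every pair of neighbors overlapped. Sst exceeded Npy, and Slc32a1 exceeded Gad2, in 12 of 12 libraries, while Cck exceeded Sst in only 7 of 12. The lowest read count behind any of these values was 237 (Vip in CON 1), so counting error was small beside the spread between libraries. Cck and Sst stood above 99.4% and 99.3% of all genes by mean FPKM, and Reln above 71.7%.

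**Figure D1:**
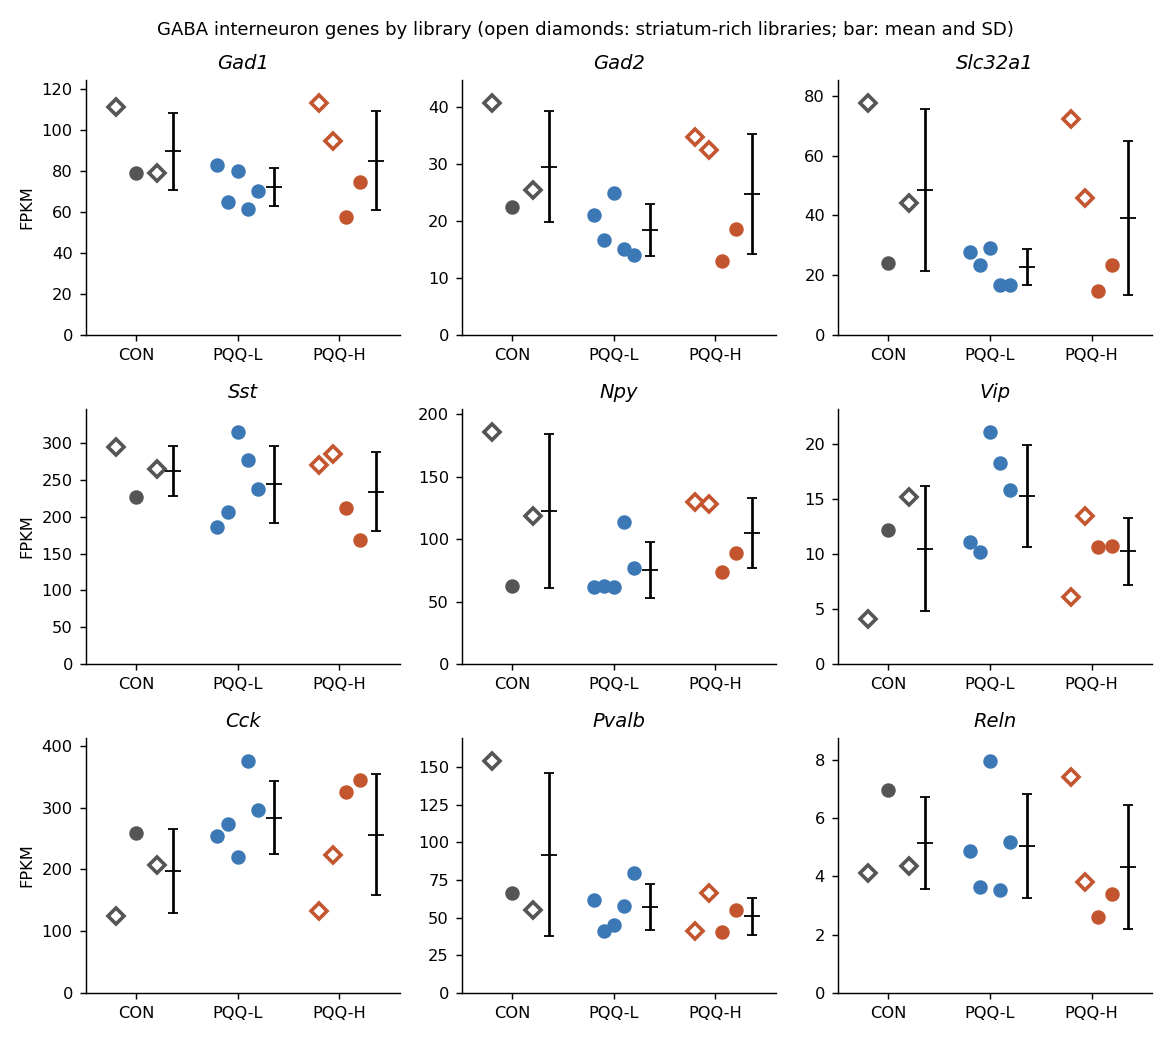
FPKM (vertical axes, starting at 0) of the 9 genes in each of the 12 libraries, by group. Each point is a library, open diamonds are the 4 striatum-rich libraries, and the bar beside each group is its mean with the SD; in Slc32a1 the diamonds sit at 44.3 to 77.6 FPKM and the filled points at 14.7 to 29.1.

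Gad1 encodes the larger decarboxylase, which supplies most of the GABA of the cell body. Its level was 111, 78.8 and 78.8 FPKM in CON 1 to CON 3, then 82.9, 65.0, 80.0, 61.7 and 70.3 in PQQ-L 1 to PQQ-L 5, and 113, 94.4, 57.8 and 74.8 in PQQ-H 1 to PQQ-H 4. The 2 highest values belonged to CON 1 and PQQ-H 1, and all 3 groups overlapped. Gad2, the smaller decarboxylase of nerve terminals, was at 40.7, 22.5 and 25.4 FPKM in CON, at 21.1, 16.7, 24.9, 15.1 and 14.1 in PQQ-L, and at 34.8, 32.5, 13.0 and 18.7 in PQQ-H. The 4 highest Gad2 values were those of the 4 striatum-rich libraries.

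Slc32a1 had the largest coefficient of variation of the 9, 61.3%, against 22.0% for Gad1 and 37.9% for Gad2. It was at 77.6, 23.9 and 44.3 FPKM in CON, at 27.7, 23.6, 29.1, 16.8 and 16.6 in PQQ-L, and at 72.3, 46.0, 14.7 and 23.4 in PQQ-H. Again the striatum-rich libraries were the 4 highest, and CON 2, the only CON library outside them, lay inside the PQQ-L range. The ratio of Gad1 to Gad2 (both in FPKM) was 2.73 to 3.25 in the striatum-rich libraries and 3.22 to 4.99 in the other 8. The ratio of Slc32a1 to Gad1 was 0.487 to 0.697 in the former and 0.237 to 0.363 in the latter, with no overlap.

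All 3 genes of GABA synthesis and loading lie on mouse chromosome 2. Their promoters are shown because these genes moved together across libraries, and those of Sst and Vip because both genes are known targets of the cyclic AMP response factor CREB. All 9 genes matched the RefSeq promoter table (build GRCm38.p6), Pvalb with 2 start sites. The 250 bases before each start are printed on the strand of the gene. Capitals mark, on either strand, the cyclic AMP response element TGACGTCA or its shorter form TGACGT, the TATA box TATAAA and the GC box GGGCGG.
Gad1 (chr2:70561879-70562128, plus strand): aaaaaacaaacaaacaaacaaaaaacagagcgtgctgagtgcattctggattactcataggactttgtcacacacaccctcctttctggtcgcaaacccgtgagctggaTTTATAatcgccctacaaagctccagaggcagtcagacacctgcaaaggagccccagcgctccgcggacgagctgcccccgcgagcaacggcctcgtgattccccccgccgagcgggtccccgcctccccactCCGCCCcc
Gad2 (chr2:22622077-22622326, plus strand): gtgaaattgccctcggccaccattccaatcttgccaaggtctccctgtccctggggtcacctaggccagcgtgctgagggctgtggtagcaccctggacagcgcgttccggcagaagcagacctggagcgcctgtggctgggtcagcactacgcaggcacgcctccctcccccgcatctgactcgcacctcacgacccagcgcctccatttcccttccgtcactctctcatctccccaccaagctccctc
Slc32a1 (chr2:158610508-158610757, plus strand): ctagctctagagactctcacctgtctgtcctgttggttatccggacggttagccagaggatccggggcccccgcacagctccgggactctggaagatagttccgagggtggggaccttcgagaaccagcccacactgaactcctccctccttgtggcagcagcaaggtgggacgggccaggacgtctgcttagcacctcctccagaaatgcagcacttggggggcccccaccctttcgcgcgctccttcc
Sst (chr16:23890845-23891094, minus strand): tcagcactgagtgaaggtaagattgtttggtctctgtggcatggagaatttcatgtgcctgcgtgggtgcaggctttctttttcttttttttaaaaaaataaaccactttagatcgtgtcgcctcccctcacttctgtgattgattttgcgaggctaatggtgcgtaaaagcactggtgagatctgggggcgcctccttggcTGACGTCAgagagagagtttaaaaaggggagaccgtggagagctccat
Vip (chr10:5638968-5639217, plus strand): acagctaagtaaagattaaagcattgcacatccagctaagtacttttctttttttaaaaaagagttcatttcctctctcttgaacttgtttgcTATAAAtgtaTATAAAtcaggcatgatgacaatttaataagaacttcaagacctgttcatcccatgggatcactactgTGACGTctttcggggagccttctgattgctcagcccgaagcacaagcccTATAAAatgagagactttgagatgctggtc

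The full element TGACGTCA was found in Sst only among the 9 genes, beginning 48 bases before the start, and in 1.55% of the 32851 promoters in the table. The shorter TGACGT, which the full element contains, was found in Sst and in Vip (79 bases before the start), against 6.47% of all promoters. TATAAA was present in Vip, beginning 157, 147 and 30 bases before the start, against 12.4% of all promoters. On the opposite strand it was present in Gad1, 141 bases before the start. GGGCGG occurred in Gad1, Npy and Reln, and in 32.7% of all promoters. Of these 4 motifs, the Gad2 and Slc32a1 windows held none, so no searched motif was shared by Gad1, Gad2 and Slc32a1. A match of letters is a description and not a bound site.

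Sst, the peptide of dendrite-targeting interneurons, had the smallest coefficient of variation of the 9 over the 12 libraries, 18.8%. It was at 295, 226 and 265 FPKM in CON, at 186, 207, 315, 276 and 237 in PQQ-L, and at 270.0, 285, 212 and 169 in PQQ-H. The highest value was in PQQ-L 3 and the lowest in PQQ-H 4, with the CON values between them. Npy, a peptide that dampens glutamate release, was at 186, 62.8 and 118 FPKM in CON, at 61.5, 62.5, 62.1, 114 and 77.2 in PQQ-L, and at 129.7, 128, 73.4 and 88.9 in PQQ-H. As with Gad2 and Slc32a1, the striatum-rich libraries held the 4 highest Npy values.

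Vip marks interneurons that mainly contact other interneurons. Its level was 4.13, 12.2 and 15.2 FPKM in CON, 11.1, 10.2, 21.1, 18.2 and 15.8 in PQQ-L, and 6.12, 13.4, 10.7 and 10.7 in PQQ-H. CON 1 and PQQ-H 1, the libraries with the largest striatal sums, had the 2 lowest Vip values. Cck, the peptide of a class of basket cells, was at 124, 259 and 208 FPKM in CON, at 255, 273, 219.7, 376 and 296 in PQQ-L, and at 133, 223, 326 and 344 in PQQ-H. CON 1 and PQQ-H 1 were lowest for Cck as well, and PQQ-L 4 was highest.

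Pvalb, which marks fast-spiking basket cells, stood out in a single library. It was at 154, 66.2 and 55.3 FPKM in CON, at 61.5, 41.3, 45.3, 57.9 and 80.0 in PQQ-L, and at 41.3, 66.5, 40.4 and 55.1 in PQQ-H. Without CON 1, all values lay between 40.4 and 80.0. CON 1 also had the highest sum of 9 thalamic markers, 154 FPKM, followed by CON 2 at 99.1 and the remaining 10 libraries at 16.4 to 48.7; the part of thalamic tissue in the Pvalb value was not tested. Reln, secreted by interneurons of the outermost layers, was at 4.13, 6.96 and 4.36 FPKM in CON, at 4.89, 3.65, 7.98, 3.54 and 5.17 in PQQ-L, and at 7.42, 3.81, 2.62 and 3.41 in PQQ-H. No group of libraries stood apart for Reln.

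To ask whether PQQ at the low dose was accompanied by a different level of these genes, PQQ-L vs. CON was tested with limma on log2(FPKM + 0.1), a scale on which the log2FC of low genes is understated. A gene was called a DEG at |log2FC| above 1 and an adjusted p below 0.05. In PQQ-L vs. CON, 0 of the 9 genes were called, where 0.471% of all 13796 genes tested were called. The mean of 7 of the 9 genes was lower in PQQ-L on the log scale, against 53.9% of all genes. Also, 0 of 9 had an unadjusted p below 0.05 (limma; 0 with voom on the recovered reads), against 20.5% of all genes.

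Slc32a1 had the lowest log2FC in PQQ-L vs. CON, −0.97 (SE 0.49, limma adjusted p = 0.256), with group means of 22.8 ± 5.9 FPKM (SD, n = 5) and 48.6 ± 27.1 (SD, n = 3). The 95% interval ran from −2.05 to 0.10. Gad2 followed with −0.67 (interval −1.38 to 0.05, adjusted p = 0.252), then Npy with −0.61 (−1.33 to 0.12) and Pvalb with −0.57 (−1.28 to 0.13). Vip and Cck were on the other side of zero, at 0.68 (−0.21 to 1.56) and 0.57 (−0.13 to 1.27). Gad1 (−0.31), Sst (−0.12) and Reln (−0.05) were closest to zero. Over the 9 genes the adjusted p ran from 0.252 to 0.924. In bulk tissue, fewer cells of a type and less RNA per cell cannot be told apart.

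At the high dose, PQQ-H vs. CON, 0 of the 9 genes were called, with 0.819% of all genes called. Here 0 of 9 had an unadjusted p below 0.05 with limma and 1 of 9 (Pvalb) with voom, against 9.73% of all genes with limma. Pvalb had the lowest log2FC, −0.73 (interval −1.47 to 0.01, limma adjusted p = 0.515), with means of 50.9 ± 12.4 FPKM (SD, n = 4) in PQQ-H and 91.9 ± 54.3 (SD, n = 3) in CON. The interval for Slc32a1 (−0.41) ran from −1.54 to 0.71, and that for Cck (0.35) from −0.38 to 1.08. The other 6 genes had a log2FC of −0.32 to 0.10. Both doses were compared with the same CON libraries.

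Between the doses (PQQ-H vs. PQQ-L), limma called 0 of the 9 and 0.0% of all genes. An unadjusted p below 0.05 was found for 0 of 9 genes, with voom as well, and for 8.15% of all genes. Slc32a1 (0.56, interval −0.43 to 1.55) and Npy (0.48, −0.19 to 1.15) had the highest log2FC. Vip had the lowest, −0.57 (−1.39 to 0.24), with 10.2 ± 3.0 FPKM (SD, n = 4) in PQQ-H and 15.3 ± 4.7 (SD, n = 5) in PQQ-L. The intervals of Slc32a1, Npy and Vip each reached past 1 on the log2 scale, so a 2-fold difference between doses lies within them.

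**Figure D2:**
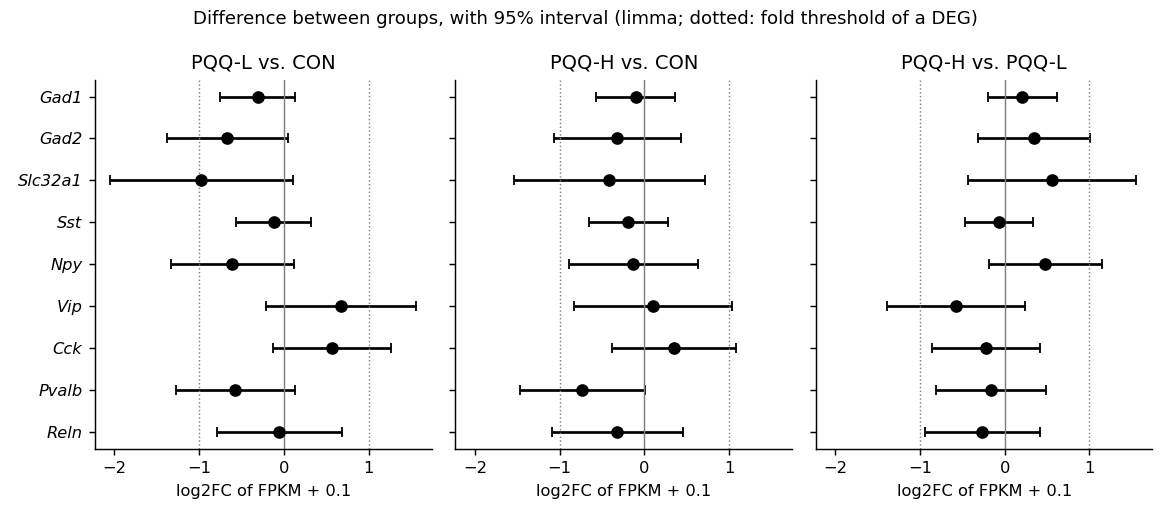
Log2FC of FPKM + 0.1 (horizontal axes) of the 9 genes in the 3 comparisons, with 95% intervals from limma and dotted lines at the fold threshold of a DEG. Every interval includes 0; those of Slc32a1 are the widest, from −2.05 to 0.10 in PQQ-L vs. CON.

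Several of the 9 genes followed the striatal marker sum of the library across groups. Gad2 was at 25.4 to 40.7 FPKM in the striatum-rich libraries and at 13.0 to 24.9 in the other 8. Slc32a1 was at 44.3 to 77.6 and 14.7 to 29.1 FPKM, and Npy at 118 to 186 and 61.5 to 114 FPKM. These 3 genes were higher without overlap, as were 10.7% of all genes tested. For Sst, 6 of the 8 other libraries lay below the striatum-rich range of 265 to 295 FPKM. None of the 9 genes was lower without overlap, against 14.3% of all genes, although Cck (124 to 223 against 219.7 to 376 FPKM) overlapped only through PQQ-H 2 and PQQ-L 3. The striatum-rich libraries were chosen by their markers and not by these genes, and no test was run on this split.

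The same order was seen inside the groups. Within PQQ-H, the 2 striatum-rich libraries were above the other 2 by 1.63 on the log2 scale for Slc32a1, 1.11 for Gad2, 0.67 for Npy, 0.65 for Gad1 and 0.55 for Sst, and below them by −0.96 for Cck. Within CON, the 2 striatum-rich libraries were above CON 2 by 1.29 for Slc32a1, 1.24 for Npy, 0.52 for Gad2, 0.31 for Sst and 0.25 for Gad1, and below it by −0.69 for Cck. For Gad1, CON 3 (78.83 FPKM) was level with CON 2 (78.76), so the 0.25 came from CON 1 (111). Reln went opposite ways, −0.70 in CON and 0.81 in PQQ-H. Pvalb and Vip overlapped within both groups.

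**Figure D3:**
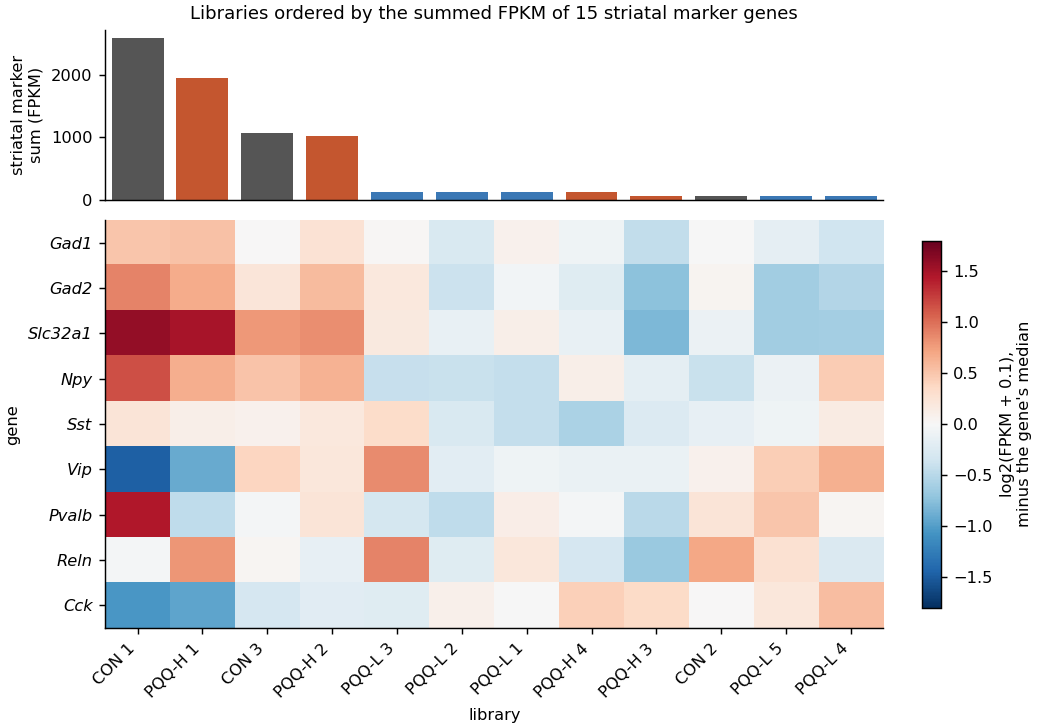
Top, summed FPKM of 15 striatal markers in the 12 libraries, in descending order (bars start at 0; gray CON, blue PQQ-L, orange PQQ-H). Bottom, log2(FPKM + 0.1) of the 9 genes minus the median of each gene over the libraries, red above and blue below it; Gad2, Slc32a1 and Npy are red and Cck is blue in the 4 libraries on the left.

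**Figure D4:**
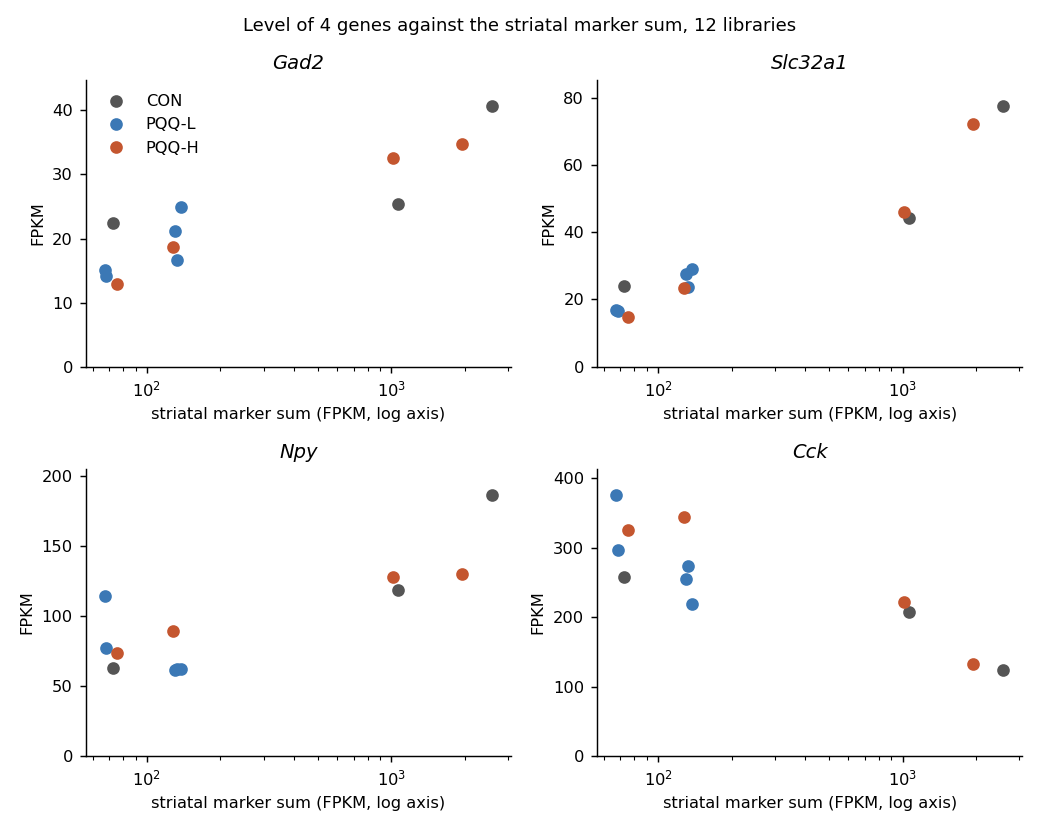
FPKM of Gad2, Slc32a1, Npy and Cck (vertical axes, starting at 0) against the striatal marker sum (log axis) in the 12 libraries, colored by group. The 4 libraries on the right, 2 of CON and 2 of PQQ-H, hold the 4 highest values of Gad2, Slc32a1 and Npy.

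The differences between groups depended on which libraries were included. Without the 4 striatum-rich libraries, the log2FC in PQQ-L vs. CON was −0.11 for Slc32a1 (interval −0.94 to 0.71), −0.32 for Gad2, −0.14 for Gad1, 0.22 for Npy, 0.08 for Sst, 0.26 for Vip, 0.11 for Cck, −0.25 for Pvalb and −0.52 for Reln, and 0 of 9 genes were called, with 0.00725% of all genes. CON then holds a single library, which is assumed to vary like the other groups. At the high dose, PQQ-H vs. CON, the values without them were −0.37 for Slc32a1, −0.53 for Gad2, −0.26 for Gad1, 0.36 for Npy, −0.26 for Sst, −0.19 for Vip, 0.37 for Cck and −0.49 for Pvalb, and that for Reln was −1.19 (interval −2.19 to −0.19, limma adjusted p = 0.422, and 0.413 to 1.0 over the 30 alternatives), with 0 of 9 and 0.0435% of all genes called. In PQQ-H vs. PQQ-L, Slc32a1 turned from 0.56 to −0.26, Gad2 from 0.35 to −0.21, Gad1 from 0.20 to −0.12 and Cck from −0.22 to 0.26, while Npy was then at 0.14, Sst at −0.34, Vip at −0.46, Pvalb at −0.24 and Reln at −0.67, with 0 of 9 and 0.0% of all genes called. With all 12 libraries and the striatal score as a covariate, Slc32a1 was at 0.05 (−0.27 to 0.36) and Gad2 at −0.05 (−0.44 to 0.34) in PQQ-L vs. CON.

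Leaving out a single library also moved the values. Without CON 2, Npy was called lower in PQQ-L vs. CON, with a log2FC of −1.02 (SE 0.30) and a limma adjusted p of 0.0382 (0.0382 to 1.0 over the 30 alternatives). Without CON 2, 6.28% of all genes were called as well, and the CON group then consisted of 2 striatum-rich libraries against 5 PQQ-L libraries with none. Slc32a1 was then at −1.40 (adjusted p = 0.0679, 0.0679 to 1.0 over the 30 alternatives) and was not called. Without CON 1, the log2FC in PQQ-L vs. CON became −0.56 for Slc32a1, −0.24 for Npy, −0.12 for Pvalb and 0.11 for Vip. Pvalb in PQQ-H vs. CON went from −0.73 to −0.28 without CON 1, and to −1.02 without CON 3 (limma adjusted p = 0.414). Without CON 3, PQQ-L vs. CON gave −0.86 for Pvalb (limma adjusted p = 0.372) and 1.04 for Vip (limma adjusted p = 0.382). Libraries of PQQ-H moved the high-dose values too, as Gad2 in PQQ-H vs. CON was at −0.52 without PQQ-H 1 and −0.047 without PQQ-H 3, and Gad1 at −0.25 and 0.069. Npy without CON 2 was the only call of any of the 9 genes under the 30 alternatives in the 3 comparisons.

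**Figure D5:**
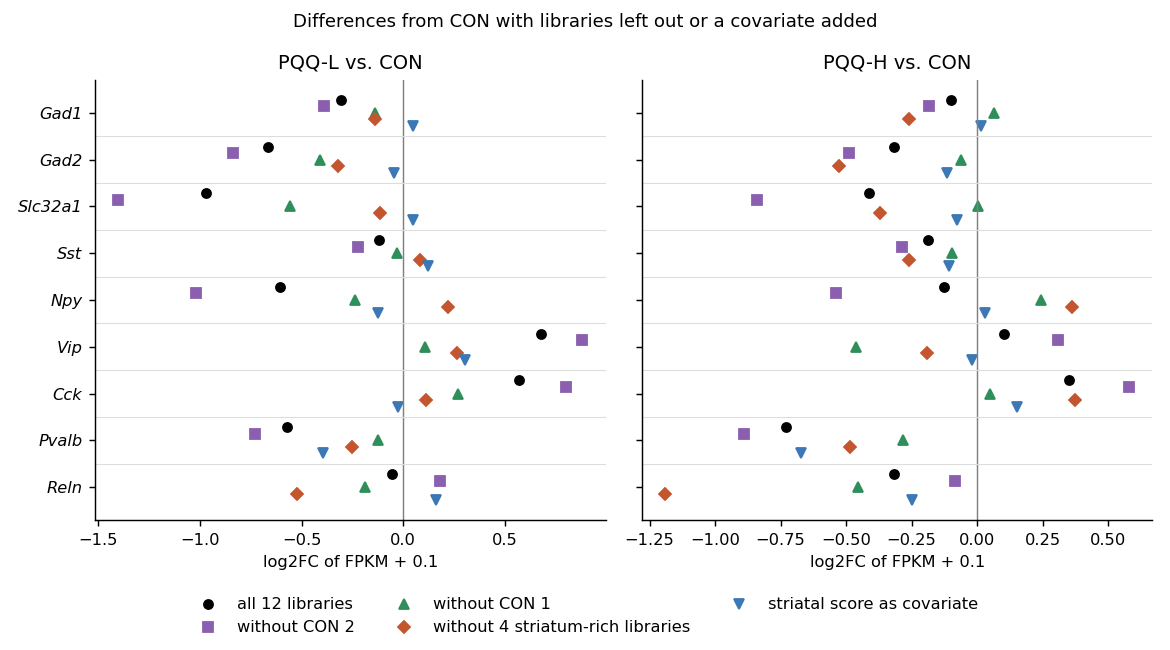
Log2FC of FPKM + 0.1 (horizontal axes) of the 9 genes against CON with all 12 libraries (black), without CON 2, without CON 1, without the 4 striatum-rich libraries, or with a striatal score as a covariate. For Slc32a1 in PQQ-L vs. CON the values run from −1.40 without CON 2 to 0.05 with the covariate.

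The library names begin with L in 7 and R in 5 of the 12 libraries, a letter that the labels do not explain. CON 1 was the only CON library named R, and it was set against 3 PQQ-L libraries and 1 PQQ-H library of that letter. In PQQ-L vs. CON, the log2 difference within L and within R was −0.96 and −1.54 for Slc32a1, −0.71 and −0.98 for Gad2, and 0.12 and −1.58 for Npy. For PQQ-H vs. CON it was 0.17 and −1.73 for Slc32a1, 0.03 and −1.12 for Gad2, and −0.33 and −1.48 for Pvalb. Within R, CON 1 is striatum-rich (striatal marker sum 2575 FPKM), while PQQ-L 1 to 3 and PQQ-H 4 are not (128 to 138 FPKM). Within L, CON 3, PQQ-H 1 and PQQ-H 2 are striatum-rich. The differences within a letter therefore cannot be told apart from striatal content, and they were not tested. With the letter as a covariate over all 12 libraries, Gad2 in PQQ-L vs. CON was at −0.75 (interval −1.48 to −0.018, limma adjusted p = 0.223) and Slc32a1 at −1.09 (−2.20 to 0.017, limma adjusted p = 0.229), and 0 of 9 genes were called.

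How the genes varied among themselves was examined in the 8 libraries that were not striatum-rich, because the 12 fall into 2 clusters. These 8 hold 1 CON, 5 PQQ-L and 2 PQQ-H libraries. Their striatal marker sums still differed, with 4 libraries (CON 2, PQQ-L 4, PQQ-L 5 and PQQ-H 3) at 67.3 to 75.2 FPKM and 4 (PQQ-L 1 to 3 and PQQ-H 4) at 128 to 138. Slc32a1 was at 14.7 to 23.9 FPKM in the former and 23.4 to 29.1 in the latter, and Gad2 at 13.0 to 22.5 and 16.7 to 24.9; the part of striatal content in the correlations was not tested. Of 36 pairs of genes, 3 had an adjusted p below 0.05 (two-sided exact permutation test of Pearson's r, adjusted over the 36). The permutations took no account of the groups or of the striatal sums, and the 8 libraries were chosen after the data were seen. Gad2 and Slc32a1 went together (r = 0.931, permutation p = 0.00149, adjusted 0.0226; rho = 0.952, p = 0.00114, adjusted 0.0402), and r was 0.864 without the 2 libraries farthest from the Gad2 median. Sst and Vip went together by r (0.909, permutation p = 0.000942, adjusted 0.0226; 0.884 without the 2 farthest), while by rank they did not pass (rho = 0.81, p = 0.0218, adjusted 0.131). Npy and Cck went together (r = 0.89, permutation p = 0.00188, adjusted 0.0226; rho = 0.929, p = 0.00223, adjusted 0.0402), and r was 0.781 without the 2 farthest. Gad1 and Gad2 (r = 0.877, permutation p = 0.00722, adjusted 0.065; rho = 0.857, p = 0.0107, adjusted 0.0964) did not pass the correction, with r at 0.784 without the 2 farthest. Over all 12 libraries, r was 0.963 for Gad2 and Slc32a1 and 0.949 for Gad1 and Gad2. It was 0.0599 for Sst and Vip and −0.579 for Npy and Cck, so neither of these pairs went together over the 12.

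By the likeness rule, the pattern of a gene was compared with every gene tested by Pearson's r over all 12 libraries. This r carries the split into striatum-rich and other libraries, and it is given as a description. The 8 genes most like the joint pattern of Gad1, Gad2 and Slc32a1 were Klhl13, Ass1, Hs3st5, Abat, Pbx3, Rcan2, Foxp2 and Scrn1 (r = 0.982 to 0.976). Abat encodes GABA transaminase, which breaks GABA down, and Foxp2 is in the striatal marker list. Slc32a1 alone was most like Gnal (0.995), which encodes a G protein subunit of striatal and olfactory neurons. Cck was most like Fkbp1b (0.979), Vip like Phf10 (0.945) and next Maf (0.928), and Sst like Ipcef1 (0.903), where Maf is a transcription factor of interneurons. Npy was most like Fst (0.963), Pvalb like Rbm38 (0.916) and Reln like Dnaaf10 (0.911).

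Other genes of the GABA system were read from 6 lists. None of their 86 tested genes was called in any comparison by limma with all 12 libraries, while 21 were called in PQQ-L vs. CON without CON 2, a setting in which 6.28% of all genes were called. Without the 4 striatum-rich libraries, 0 of the 86 were called in any comparison. In PQQ-L vs. CON with all libraries, 17 of the 86 had an unadjusted p below 0.05, where 20.5% of all genes did. Among 10 tested genes of GABA transport and breakdown, the highest levels were those of Glul (814 FPKM), Glud1 (93.8) and Abat (67.9), with a log2FC in PQQ-L vs. CON of −0.13, −0.07 and −0.51. The lowest value in PQQ-H vs. CON was that of Slc6a11, a GABA transporter of astrocytes, at −0.85 (limma adjusted p = 0.438). The median log2FC of the list was 0.01 at the low dose and −0.19 at the high dose against CON, beside −0.03 for all genes in both. Without the striatum-rich libraries these medians were −0.065 and −0.33, and Slc6a11 was at −1.10 in PQQ-H vs. CON (limma adjusted p = 0.457).

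The median log2FC of 12 genes of GABA synapse structure was 0.16 in PQQ-L vs. CON. Iqsec3 was at 0.60, with an unadjusted p below 0.05. Slitrk3, an adhesion protein of inhibitory synapses, was at 0.74 at the low dose and 0.46 at the high dose against CON without passing. Gabarap (147 FPKM) and Gabbr1 (129) were the most abundant, with values of −0.24 and −0.16 in PQQ-L vs. CON. Without the striatum-rich libraries the median in PQQ-L vs. CON was −0.061, with Iqsec3 at 0.092 and Slitrk3 at −0.059.

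The receptors of the peptides and of reelin had 4 of 13 genes at an unadjusted p below 0.05 in PQQ-L vs. CON, all higher, where 20.5% of all genes had such a p, and a median of 0.46. Npy2r, the presynaptic receptor of neuropeptide Y, was at 2.41 and the somatostatin receptor genes Sstr4 and Sstr3 at 1.74 and 1.06. Dab1, the adaptor that carries the reelin signal, was at 0.69. At the high dose against CON, 0 of 13 had an unadjusted p below 0.05 (9.73% of all genes), with Npy2r at 1.55 and Sstr4 at 1.25. These values stand beside CA pyramidal markers of which 8 of 8 were higher than CON on the log scale in both comparisons. Of all genes, 53.9% were lower in PQQ-L vs. CON. The part of CA pyramidal content in the receptor values was not tested. In PQQ-H vs. PQQ-L, Npy2r was at −0.86 and Sstr1 at −0.79. Without the striatum-rich libraries, the median in PQQ-L vs. CON was −0.14, with Npy2r at −0.14, Sstr4 at 0.003, Sstr3 at 0.007 and Dab1 at 0.099. Sstr1, which encodes a somatostatin receptor, was then at −0.89 in PQQ-H vs. PQQ-L (limma adjusted p = 0.333) and Npy2r at 0.51.

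Among 15 tested transcription factors of interneurons, 2 had an unadjusted p below 0.05 in PQQ-L vs. CON, both lower, beside 20.5% of all genes. These were Dlx6 (−1.86) and Dlx5 (−1.24), which are also expressed in the striatum. Lhx6, the factor of Sst and Pvalb interneurons, was at 0.01 and Prox1, which dentate granule neurons also express, at 1.14. Nr2f2 was lowest in PQQ-H vs. CON, at −0.99. Among 30 other interneuron markers, 1 was lower and 5 were higher at an unadjusted p below 0.05 in PQQ-L vs. CON, again beside 20.5% of all genes. Penk and Tac1, peptide genes that striatal neurons also express strongly, were at −2.77 and −2.23 in PQQ-L vs. CON, and at 2.19 and 1.50 in PQQ-H vs. PQQ-L, without passing. Between the doses, Penk and Tac1 were at −0.048 and −0.87 without the striatum-rich libraries. Sncg was at −1.22 in PQQ-H vs. CON (limma adjusted p = 0.155). Without the striatum-rich libraries, PQQ-L vs. CON gave −0.34 for Dlx6, −0.38 for Dlx5, −0.34 for Prox1, 0.84 for Penk and 0.96 for Tac1, and PQQ-H vs. CON gave −1.65 for Nr2f2 and −1.35 for Sncg (limma adjusted p = 0.521 and 0.43).

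Perineuronal net genes encode the matrix that wraps many Pvalb interneurons. Of 6 tested, 2 were higher at an unadjusted p below 0.05 at the low dose and 1 at the high dose, each against CON, where 20.5% and 9.73% of all genes passed in either direction. Hapln1, a link protein of the net, was at 0.80 and 0.55 in these comparisons, with a limma adjusted p of 0.18 and 0.499, and at 0.33 and 0.36 without the striatum-rich libraries. The most abundant members were Bcan (49.6 FPKM), Hapln4 (32.2) and Ncan (20.8), at −0.06, 0.53 and 0.30 in PQQ-L vs. CON. Without the striatum-rich libraries, Bcan, Hapln4 and Ncan were at 0.054, −0.021 and 0.065. The median log2FC of the list in PQQ-L vs. CON was 0.415 with all libraries and 0.036 without the striatum-rich ones. All 15 striatal markers had a log2FC below 0 in PQQ-L vs. CON, with a median of −3.09, where 53.9% of all genes were below 0. Of these 15, 4 had an unadjusted p below 0.05, beside 20.5% of all genes. PQQ-L holds 0 and CON holds 2 of the 4 striatum-rich libraries.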

How the data were processed

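RNA was extracted from hippocampus with TRIzol, and the FPKM table was made and deposited by the authors. Reads had been filtered by fastp, HISAT2 was the aligner and HTSeq-count gave the counts per gene. The submitters' processing notes name mm39, while the promoter table here is of GRCm38.p6, so no gene position was taken across builds. FPKM divides by gene length and library total. Whole reads were recovered from the steps of the deposited FPKM for 100% of the 25563 genes above 0 in 2 or more libraries (tolerance 0.02 reads). Lowest reads of a library were 29654553. No pair of libraries of a group was a duplicate.

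For genes with a mean of at least 0.5 FPKM, log2(FPKM + 0.1) was fitted over all 12 libraries by limma (version 3.58.1, R 4.3.3; trend option, Benjamini-Hochberg adjustment). In simulated PQQ-L vs. CON data of 13795 genes, 200 carried a log2 change of 2, and the test called 199 of these and 1 unchanged gene. The simulated libraries did not differ in striatal or choroid plexus content. These counts therefore do not show how well the test does in the real libraries. Python 3.11.15, numpy 2.4.6, pandas 2.3.3 and matplotlib 3.10.9 did the rest. The genes, lists and rules were chosen with earlier results of these data known. The genes named are the 9 genes, the 8 genes most like Gad1, Gad2 and Slc32a1 together, the 3 most like each gene, and in each list the 3 most abundant and the 2 with the largest |log2FC| per comparison. Examples from these are given, some genes that this rule takes are not reported here, and a few list genes with an unadjusted p below 0.05 (Iqsec3, Sstr3, Dab1) or of known role (Lhx6) were added after their values were seen. The 30 alternatives were 12 libraries left out in turn, 16 other planned settings, and 2 chosen after seeing the data (without the striatum-rich libraries, and a hippocampal score as a covariate).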

Additional observations from a re-analysis of the deposited data

How the results depend on the processing

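With 30 alternatives, 0 of the 9 genes were called in 29, and Npy was called in PQQ-L vs. CON without CON 2 (log2FC −1.02, adjusted p = 0.0382); the cause was not tested. Over the planned scalings, filters, pseudocounts and limma settings the directions of the 9 genes stayed as reported, except Reln with TPM (0.056) and Sst with quantile normalization (0.057), both in PQQ-L vs. CON. TPM moved the median log2FC of all genes in PQQ-H vs. PQQ-L to −0.11. The replicate numbers do not pair libraries by any label, and the correlations of same-numbered libraries ran from −0.62 to 0.72; with the replicate block, 23 genes were called at the low dose and 48 at the high dose against CON, and Reln was at 0.028 in PQQ-L vs. CON, while 0 of the 9 genes were called.

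Covariates and left-out libraries turned more directions. In PQQ-L vs. CON, a striatal score as covariate gave Gad1 0.049, Slc32a1 0.047, Sst 0.12, Cck −0.028 and Reln 0.16, a hippocampal score gave Gad1 0.037, Slc32a1 0.014, Sst 0.16, Cck −0.019 and Reln 0.098, a choroid plexus score gave Sst 0.085, and leaving out the 4 striatum-rich libraries gave Sst 0.084 and Npy 0.22. In PQQ-H vs. CON, the striatal score gave Gad1 0.016, Npy 0.032 and Vip −0.021, the hippocampal score gave Gad1 0.15, Gad2 0.15, Slc32a1 0.32, Sst 0.024, Npy 0.25, Vip −0.17 and Cck −0.088, the choroid plexus score gave Sst 0.087, and without the striatum-rich libraries Npy was at 0.36 and Vip at −0.19. In PQQ-H vs. PQQ-L, the striatal score gave Gad1 −0.033, Gad2 −0.067, Slc32a1 −0.12 and Cck 0.18, the choroid plexus score gave Sst 0.002 and Vip 0.17, and without the striatum-rich libraries the values were −0.12 for Gad1, −0.21 for Gad2, −0.26 for Slc32a1 and 0.26 for Cck. Because the choroid plexus score separates CON from the rest, it gave values such as 2.86 for Vip and −2.28 for Pvalb in PQQ-L vs. CON.

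Leaving out 1 library at a time, the log2FC ranged in PQQ-L vs. CON from −0.23 to 0.18 for Reln, in PQQ-H vs. CON from −0.25 to 0.069 for Gad1, −0.84 to 0.005 for Slc32a1, −0.54 to 0.24 for Npy and −0.46 to 0.46 for Vip, and in PQQ-H vs. PQQ-L from −0.17 to 0.08 for Sst and −0.39 to 0.065 for Cck; the other 20 kept their direction. The number of genes called ranged from 23 to 866 in PQQ-L vs. CON (65 with all libraries, 23 without CON 1, 866 without CON 2, 37 without CON 3, 43 without PQQ-L 1) and from 62 to 153 in PQQ-H vs. CON (113 with all, 64 without CON 1, 62 without CON 3, 68 without PQQ-H 3, 67 without PQQ-H 4), and was 0 between the doses. In PQQ-L vs. CON, 0 to 1 of the 9 genes and 0 to 21 genes of the 6 lists were called. The count in PQQ-L vs. CON was 112 with no filter, 42 with a mean of at least 1 FPKM, 17 with array weights (an estimate that stopped short of convergence), 39 with the striatal, 30 with the hippocampal and 0 with the choroid plexus score, 123 with voom and 1 without the striatum-rich libraries. In PQQ-H vs. CON it was 170 with no filter, 68 with a mean of at least 1 FPKM, 44 with only the 2 groups, 31 with array weights, 74 with the hippocampal and 0 with the choroid plexus score, and 6 without the striatum-rich libraries. The groups hold 3 to 5 libraries, and 4 of the 12 libraries differ from the rest in tissue content; the lowest read count behind a value of the 9 genes was 237.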
